A study of Mus musculus with 24 samples.

Results

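The genes described here are 9 epidermal genes of the mouse limb bud, 7 keratins (Krt5, Krt14, Krt15, Krt17, Krt1, Krt10 and Krt77) and 2 transcription factors (Grhl3 and Trp63). They were chosen by gene symbol, and each symbol was found once among the 25844 genes counted. The transcripts were counted by sequencing polyadenylated RNA from forelimb buds of CD1 mouse embryos, taken at gestation day 13 and kept in culture for 3 or 24 h. The medium held the solvent DMSO (control), 1 µM or 10 µM tert-butylphenyl diphenyl phosphate (BPDP), a plasticizer and flame retardant of the organophosphate ester class. This gives 6 groups of 4 libraries, 24 libraries in all. The title of the series asks about hedgehog signalling in these cultures.

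Keratins are the intermediate filament proteins of epithelial cells and form pairs of a type I and a type II chain. Basal keratinocytes, which divide on the basement membrane, make Krt5 and Krt14, with Krt15 in many basal cells. As cells leave the basal layer and begin to differentiate, they switch to Krt1 and Krt10, and in embryonic mouse epidermis Krt77 is a further type II chain of suprabasal cells. Trp63 is the transcription factor that commits surface ectoderm to a stratified epithelium, and Grhl3 is a grainyhead-like factor needed for the late steps of barrier formation. The limb bud is mostly mesenchyme under a thin sheet of ectoderm, so these transcripts come from a small share of the tissue.

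Total counts per library lay between 14165947 and 20823058. Levels are given as CPM, the count of a gene scaled to the total count of its library. The labels do not state whether replicates were separate litters or cultures, and p-values here reflect only how these samples varied, which may be technical. A gene was called when its adjusted p from edgeR's quasi-likelihood test, corrected over all genes tested, was under 0.05. Checked against markers of limb bud tissue, 8 mesenchyme genes summed to between 4597 and 8102 CPM in the 24 libraries. The surface ectoderm was present in every group, with Epcam, an adhesion protein of epithelial cells, at group means of 38.2 to 47.3 CPM and Cdh1 (E-cadherin) at 50.9 to 81.2 CPM. In whole tissue, fewer epithelial cells and less RNA per epithelial cell cannot be told apart.

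On the mm10 build used for the deposited tables, the type II keratin genes lie together on chromosome 15: Krt5 at chr15:101707070-101712891, Krt1 at chr15:101845428-101850786 and Krt77 at chr15:101858732-101869705. The type I genes lie on chromosome 11: Krt10 at chr11:99385254-99389364, Krt15 at chr11:100131758-100135928, Krt14 at chr11:100203162-100207548 and Krt17 at chr11:100256217-100261029. Grhl3 is at chr4:135541888-135573630 and Trp63 at chr16:25683763-25892102. Trp63 lies on the plus strand and the other 8 genes on the minus strand. Keratin genes resemble each other closely enough to share reads: of the 50-base stretches in their GENCODE vM21 transcripts, 13.9% in Krt14 also occurred in Krt16 or Krt17, 8.52% in Krt5 occurred in Krt6a, Krt6b or 2 predicted genes, and 3.99% in Krt17 occurred in other type I genes. For Krt15 the share was 0.64%, and for the other 5 genes no stretch was shared. Krt10 overlaps an antisense gene (Gm11940) and Trp63 a pseudogene (Gm27005), and since no source states whether strand was kept, reads of Krt10 and its antisense partner cannot be separated.

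Between genes, levels were compared as CPM per kilobase of the deposited gene length. In the 3 h controls the basal keratins led, with Krt5 at 187 ± 28.3 (SD, n = 4), Krt14 at 171 ± 12.8 and Krt15 at 94.9 ± 13.9 CPM per kilobase. Krt5 and Krt14 did not differ beyond their spread. Krt17, a keratin of periderm, appendages and stressed epidermis, followed at 41.8 ± 12.4, then Krt1 at 13.3 ± 7.30, Krt10 at 10.1 ± 5.57, Grhl3 at 7.47 ± 0.337 and Trp63 at 5.40 ± 1.26, where Krt1, Krt10 and Grhl3 overlapped. Krt77 stood at 0.107 ± 0.116. In the 24 h controls the order was Krt5 (321 ± 97.7), Krt14 (283 ± 78.1), Krt1 (192 ± 137), Krt17 (167 ± 42.5), Krt10 (108 ± 76.1), Krt15 (72.8 ± 33.1), Krt77 (25.5 ± 34.8), Trp63 (9.18 ± 2.92) and Grhl3 (8.72 ± 3.29 CPM per kilobase). Neighbours in that order lay within each other's spread. With 10 µM at 24 h, Krt14 (270 ± 36.8) stood above Krt17 (138 ± 44.5) and Krt5 (135 ± 23.2 CPM per kilobase).

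**Figure D1:**
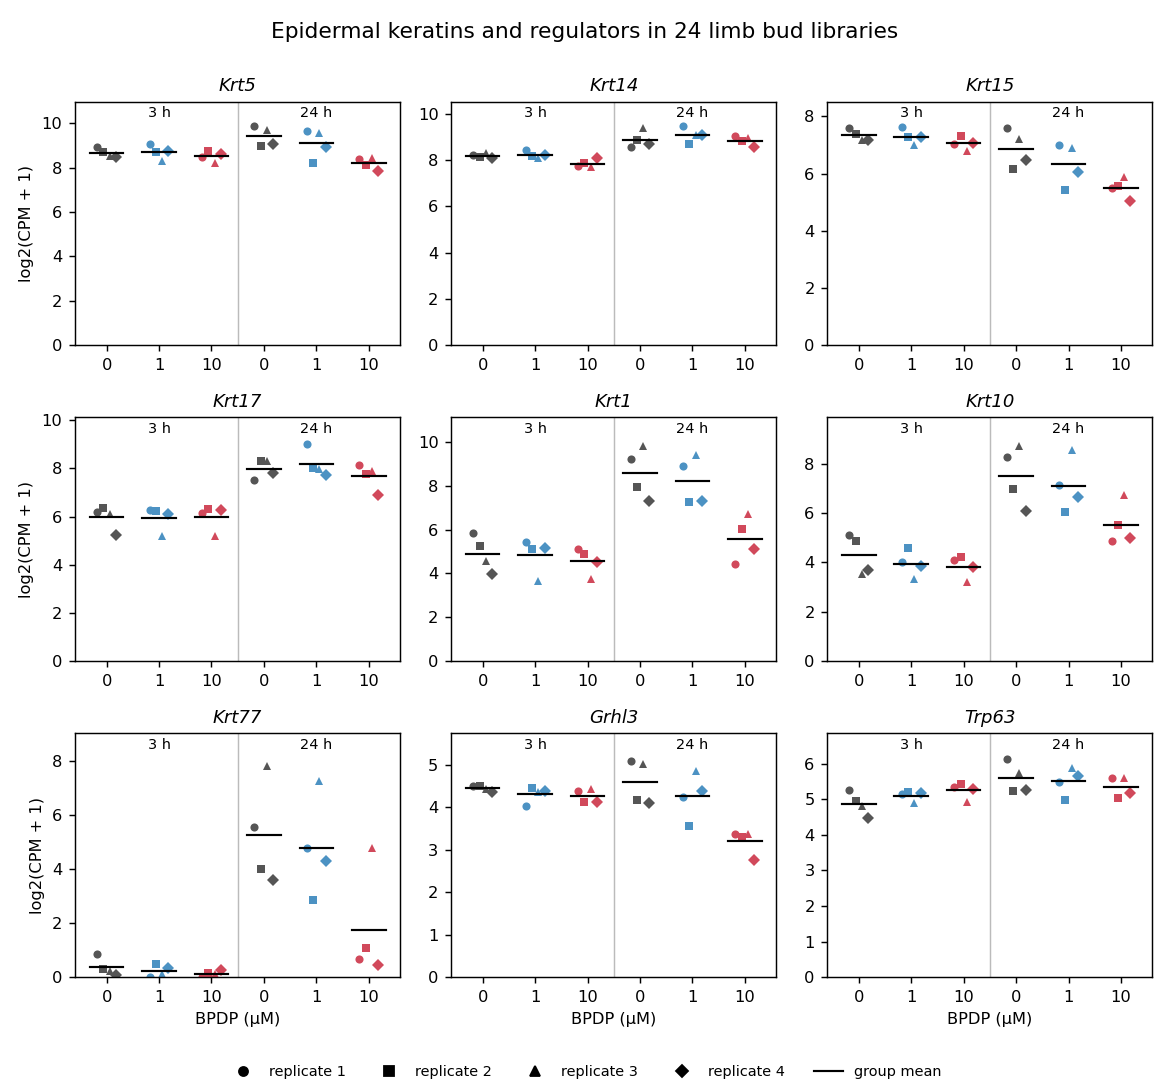
Level of each of the 9 genes in every library, as log2(CPM + 1) on the vertical axis, by BPDP concentration at 3 h (left of the line) and 24 h (right). Marker shapes are replicate numbers and bars are group means. At 24 h, replicate 1 or 3 holds the highest value of every gene in each group, and the 10 µM libraries lie below the controls for Krt5, Krt15, Krt1 and Grhl3.

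The spread between replicates was described by the coefficient of variation of CPM. Leaving out Krt77, whose counts at 3 h were near 0, it had a median over the 8 other genes of 19.2% in the 3 h controls and 34.8% in the 24 h controls, where Krt1 reached 71.3%. The libraries of 1 number were high together: in each of the 3 groups at 24 h, replicate 3 held the highest value for 5 of the 9 genes and replicate 1 for the other 4. Calls at 24 h were therefore also checked without replicate 3 and with replicate number as a block.

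In the control cultures, 6 of the 9 genes rose between 3 and 24 h and none fell: Krt5, Krt14, Krt17, Krt1, Krt10 and Krt77. Krt77 was too low at 3 h to pass the count filter and entered this comparison only through the 24 h libraries, so its rise is a description. Of all genes tested in that comparison 9.55% were called, 5.45% higher. The groups did not overlap, with 24 h higher, for these same 6 genes, against 6.91% of all genes tested. The median log2 fold change was 0.81 over the 9 genes and 0.0092 over all genes tested.

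Krt5, the basal type II keratin, was at 493, 421, 369 and 357 CPM in replicates 1 to 4 of the 3 h controls and at 938, 509, 833 and 536 CPM at 24 h. All 24 h libraries lay above all 3 h libraries, and Krt5 rose by 0.81 on the log2 scale (SE 0.218, adjusted p = 0.0389). Its partner Krt14 went from 296, 280, 317 and 267 CPM to 373, 462, 672 and 418 CPM, a log2 fold change of 0.75 (SE 0.164, adjusted p = 0.0114). Krt15 showed no common direction: its values were 192, 167, 143 and 143 CPM at 3 h and 193, 69.7, 146 and 86.9 CPM at 24 h (log2 fold change -0.34, adjusted p = 0.615). Replicates 1 and 3 were about as high as at 3 h, and replicates 2 and 4 were lower than every 3 h library.

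Krt17 rose from 72.6, 81.9, 67.4 and 37.3 CPM to 183, 312, 315 and 222 CPM. The groups were far from overlapping, and the log2 fold change was 2.02 (SE 0.231, adjusted p = 0.00105), the smallest adjusted p of the 9 genes. The calls of Krt17 and Krt14 held without any 1 of the 8 libraries.

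Among the keratins of differentiated cells, Krt1 went from 55.5, 36.8, 22.6 and 14.9 CPM at 3 h to 599, 242, 883 and 157 CPM at 24 h (log2 fold change 3.92, SE 0.766, adjusted p = 0.0286). Krt10, its type I partner, went from 33.8, 28.5, 10.6 and 12.1 CPM to 304, 125, 412 and 67.3 CPM (3.48, SE 0.768, adjusted p = 0.0420). Both were higher in every 24 h library than in any 3 h library, and both were highest in replicate 3 at 24 h. Krt77 had 14, 4, 3 and 1 counts in the 3 h controls (0.809, 0.227, 0.163 and 0.0516 CPM) and 795, 279, 4414 and 225 counts at 24 h (46.5, 15.2, 226 and 11.3 CPM). Its fitted log2 fold change was 7.97 (SE 1.68, adjusted p = 0.0376), a size that depends on the few counts at 3 h. These calls were close to the threshold. Leaving out 1 library ended the call of Krt10 in 7 of 8 cases (all but 24 h replicate 4, adjusted p up to 0.130) and of Krt77 in 5 (all 3 h controls and 24 h replicate 1, up to 0.122). It ended that of Krt5 in 5 cases (3 h replicates 2, 3 and 4, 24 h replicates 1 and 3, up to 0.118) and of Krt1 in 4 (3 h replicates 2, 3 and 4, 24 h replicate 1, up to 0.0964). Of the 9 genes 1 passed within replicates 1 and 2, 2 within replicates 3 and 4, and 3 with replicate 3 left out of both groups.

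Neither regulator passed in the comparison of the 8 control libraries. Trp63 was at 37.3, 30.3, 27.3 and 21.1 CPM at 3 h and at 70.0, 36.6, 52.8 and 37.6 CPM at 24 h, higher in the 24 h library of each replicate number, with overlapping groups (log2 fold change 0.80, SE 0.246, adjusted p = 0.0735). Trp63 did pass with DESeq2 (adjusted p = 0.00497), within replicates 3 and 4 (0.00966), in 1 fit of all 24 libraries (0.0149) and without 24 h replicate 2 (0.0335) or 4 (0.0492), and the authors' deposited table lists an adjusted p of 0.00516. Grhl3 was at 21.7, 21.5, 20.6 and 19.6 CPM at 3 h, the tightest group of all, and at 33.2, 16.8, 31.3 and 16.0 CPM at 24 h (0.26, adjusted p = 0.581). Replicates 1 and 3 at 24 h were above, and replicates 2 and 4 below, all 3 h libraries. Markers of other cell types moved over the same time: 7 of 8 cartilage, 7 of 8 skeletal muscle and 7 of 8 macrophage markers were higher at 24 h, and the summed erythroid markers lay at 3104 to 6444 CPM at 3 h and 2011 to 3458 CPM at 24 h. Of all genes tested 5.45% were called higher over that time. The part of these cell types in the rise of the epidermal genes, which are given relative to the counts of the whole tissue, was not tested.

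With 10 µM BPDP for 24 h, 2 of the 9 genes fell against the 24 h controls, Grhl3 and Krt5, and none rose. In that comparison 6.21% of all genes tested were called, 3.44% lower. The 10 µM libraries all lay below all control libraries for 4 genes, Krt5, Krt15, Krt1 and Grhl3, against 7.87% of all genes tested. The median log2 fold change was -1.47 over the 9 genes and -0.017 over all genes tested. For 7 genes (all except Krt14 and Krt17) the 10 µM library was the lower one in each of the 4 replicate numbers, against 17.1% of all genes tested. Krt77 among them passed the count filter only with the control libraries, where it was high, so its place in these counts is a description.

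Grhl3 was at 33.2, 16.8, 31.3 and 16.0 CPM in the 24 h controls and at 9.29, 8.77, 9.28 and 5.79 CPM with 10 µM. The highest treated library was well below the lowest control, and the log2 fold change was -1.55 (SE 0.291, adjusted p = 0.0116). The call held without any 1 of the 8 libraries (adjusted p up to 0.0454). With replicate 3 left out of both groups the log2 fold change was -1.46 and the adjusted p was 0.0739. Within replicates 1 and 2 it was -1.47 (adjusted p = 0.261) and within replicates 3 and 4 it was -1.64 (adjusted p = 0.138), with 2 libraries a group.

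Krt5 fell from 938, 509, 833 and 536 CPM to 330, 277, 342 and 231 CPM, and the 10 µM libraries also lay below the range of the 3 h controls. The log2 fold change was -1.26 (SE 0.242, adjusted p = 0.0158). Without control replicate 3 the adjusted p was 0.0560, and without 10 µM replicate 2 it was 0.0526. With replicate 3 left out of both groups it was 0.0874, at a log2 fold change of -1.24. In replicates 1 and 2 alone and in replicates 3 and 4 alone the log2 fold change was -1.25 (adjusted p = 0.286 and 0.266). Krt15, the other basal keratin, was at 193, 69.7, 146 and 86.9 CPM in controls and at 44.0, 46.1, 57.3 and 31.9 CPM with 10 µM. The groups did not overlap, but the log2 fold change of -1.47 (SE 0.394) did not pass (adjusted p = 0.0861). It passed without control replicate 2 (adjusted p = 0.0349).

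The other basal keratin, Krt14, gave no such difference. It was at 373, 462, 672 and 418 CPM in controls and at 520, 445, 491 and 377 CPM with 10 µM, so the ranges overlapped and replicate 1 was higher with 10 µM. The log2 fold change was -0.06 (SE 0.181, adjusted p = 0.901). Krt17 was at 183, 312, 315 and 222 CPM against 282, 218, 240 and 119 CPM (-0.25, SE 0.277, adjusted p = 0.685), again overlapping. Trp63 was at 70.0, 36.6, 52.8 and 37.6 CPM against 48.0, 31.7, 47.6 and 35.6 CPM (-0.27, SE 0.254, adjusted p = 0.614), slightly lower in each replicate number and overlapping between groups.

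In the fit of the 2 groups, the keratins of differentiated cells had the largest differences and the largest spread. Krt1 was at 599, 242, 883 and 157 CPM in controls and at 20.2, 63.4, 102 and 33.1 CPM with 10 µM, without overlap (log2 fold change -3.11, SE 0.820, adjusted p = 0.0910). Krt10 was at 304, 125, 412 and 67.3 CPM against 28.2, 44.6, 105 and 31.0 CPM, where 10 µM replicate 3 lay above control replicate 4 (-2.13, SE 0.769, adjusted p = 0.187). Krt77 was at 46.5, 15.2, 226 and 11.3 CPM against 0.603, 1.12, 26.3 and 0.382 CPM, and 10 µM replicate 3 held 431 of its counts where the other 3 libraries held 12, 20 and 6 (-3.42, SE 1.69, adjusted p = 0.322). None of the 3 passed in the comparison of the 2 groups alone, although each was lower in all 4 replicate numbers. With replicate number as a block, Krt77 passed (log2 fold change -4.02, adjusted p = 0.0482) beside Krt5 and Grhl3. The 10 µM group alone would not bring Krt77 through the count filter. It entered with the control libraries, so that pass is a description. With DESeq2, and in 1 fit of all 24 libraries, Krt15, Krt1 and Krt10 passed as well (adjusted p = 0.00487, 0.000671 and 0.0433, and 0.00740, 0.00543 and 0.0335). The authors' deposited table for this comparison lists adjusted p-values of 8.37e-07 for Grhl3, 0.000388 for Krt5, 0.00477 for Krt1, 0.00522 for Krt15 and 0.0658 for Krt10. Its log2 fold changes were -1.14 for Grhl3, -0.90 for Krt5, -0.82 for Krt15, -0.75 for Krt1, -0.54 for Krt10 and -0.21 for Krt77. There the keratins of differentiated cells had smaller values than Grhl3, Krt5 and Krt15. In the 18 fits made here Krt1 ran from -3.62 to -2.59, Krt10 from -2.74 to -1.65 and Grhl3 from -1.71 to -1.35. The sources do not say how the deposited log2 fold changes were computed. They may be on another scale, and their order is not read as a difference between genes.

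**Figure D2:**
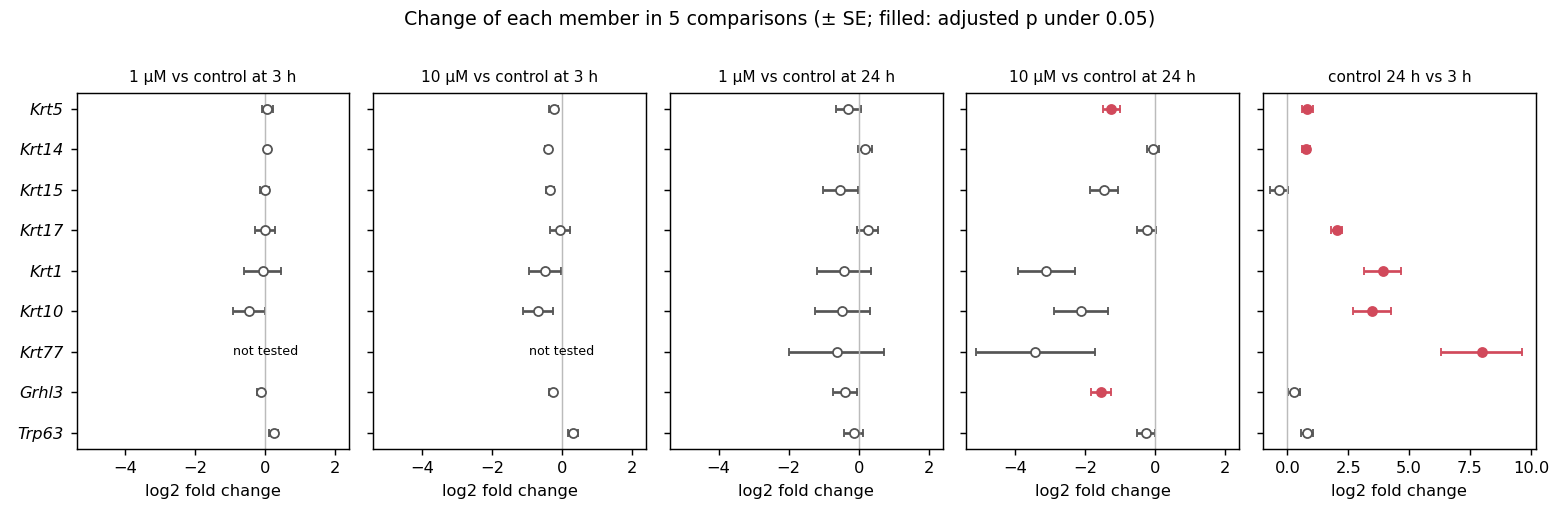
Log2 fold change of each gene (horizontal axis, points with standard errors) in the comparisons of 1 and 10 µM BPDP with control at 3 and 24 h, and of control over time, which has a wider axis. Filled points passed an adjusted p of 0.05, and Krt77 was below the count filter at 3 h. At 24 h with 10 µM, Krt5 (-1.26) and Grhl3 (-1.55) are filled and Krt1, Krt10 and Krt77 lie farther left with wide errors, while Krt14, Krt17 and Trp63 lie between -0.27 and -0.06.

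Against the 3 h controls, no gene of the set passed with either concentration at 3 h, where Krt77 was too low to be tested. Called genes made up 0% (1 µM) and 0.00644% (10 µM) of all genes tested there. Krt14 came nearest with 10 µM: it was at 296, 280, 317 and 267 CPM in controls and at 211, 234, 207 and 268 CPM with 10 µM. Only replicate 4 reached into the control range, and the log2 fold change was -0.40 (SE 0.0965, adjusted p = 0.0958). With replicate number as a block Krt14 passed (-0.41, adjusted p = 0.0470), and it passed with DESeq2 (adjusted p = 0.00875), without the count filter (0.0413) and with a term that separates replicates 1 and 2 from 3 and 4 (0.0299). The authors' deposited table lists it with an adjusted p of 0.00864. Trp63 was at 39.7, 42.1, 29.5 and 38.4 CPM with 10 µM, above the 3 h control of the same number in all 4 cases (log2 fold change 0.31, SE 0.145, adjusted p = 0.326). Of all genes tested 17.7% were higher in all 4 numbers. Krt15 and Grhl3 were below the control of the same number in all 4 cases, against 8.09% of all genes tested. Krt77 had 0, 2, 1 and 3 counts with 10 µM and 0, 7, 2 and 4 counts with 1 µM at 3 h, and a count of 0 in those libraries allows up to 3 counts, 0.173 and 0.182 CPM (counting error only).

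With 1 µM for 24 h no gene of the set passed either, where 0.077% of all genes tested were called. Log2 fold changes ran from -0.63 (Krt77, SE 1.35) over -0.53 (Krt15), -0.47 (Krt10), -0.42 (Krt1), -0.39 (Grhl3), -0.30 (Krt5) and -0.14 (Trp63) to 0.18 (Krt14) and 0.26 (Krt17). Adjusted p-values lay between 0.954 and 0.988. Krt5 and Krt15 were lower with 1 µM in all 4 replicate numbers, against 6.02% of all genes tested. Grhl3 was at 17.9, 10.7, 27.6 and 19.8 CPM with 1 µM, within or below the control range. Krt1 was at 470, 150, 681 and 158 CPM and Krt77 at 26.8, 6.31, 152 and 18.7 CPM, both highest in replicate 3 as in the controls.

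Set directly against 1 µM at 24 h, 10 µM gave lower Grhl3 (log2 fold change -1.17, SE 0.245, adjusted p = 0.00749) and lower Krt1 (-2.70, SE 0.675, adjusted p = 0.0333). These 2 of 9 genes compare with 3.35% of all genes tested called in that contrast, 2.13% lower, and the libraries of the concentrations did not overlap for the same 2 genes (7.11% of all genes tested, lower). The Krt1 call was lost in 5 of 8 cases without 1 library (1 µM replicates 1 and 3, 10 µM replicates 1, 2 and 4, adjusted p up to 0.102). With replicate 3 left out of all groups, Grhl3 (-1.02, adjusted p = 0.0792) and Krt1 (adjusted p = 0.0806) did not pass and Krt77 did (-4.60, adjusted p = 0.0180). With replicate number as a block, Krt5 (-0.92, adjusted p = 0.0357) and Krt77 (-3.31, adjusted p = 0.00489) passed beside Grhl3 and Krt1. All except Krt14, Krt15 and Trp63 were lower with 10 µM in each of the 4 replicate numbers, against 17.1% of all genes tested. Krt77 passed the count filter through the control and 1 µM libraries at 24 h, so its values in this contrast are a description. At 3 h no gene passed between the concentrations, where 0% of all genes tested were called.

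The course from 3 to 24 h was also read within each concentration. With 1 µM, Krt14, Krt17, Krt1, Krt10 and Krt77 rose (19.9% of all genes tested called, 10.1% higher), and Krt5 had a log2 fold change of 0.45 (SE 0.269, adjusted p = 0.270). With replicate number as a block Krt15 passed as lower (-0.91, adjusted p = 0.0380; -0.85 and 0.0798 without it). With 10 µM, Krt14 (1.09, SE 0.165, adjusted p = 1.72e-05), Krt17 (1.82, SE 0.345), Krt10 (2.02, SE 0.659) and Krt77 (6.27, SE 2.26) rose, and Krt15 (-1.47, SE 0.339) and Grhl3 (-1.04, SE 0.245, adjusted p = 0.00245) fell. Here 28.1% of all genes tested were called, 14% higher and 14.1% lower. The values of Krt77 over time again rest on 3 h libraries with at most 7 counts. It passed the count filter only through the 24 h libraries, so its rise with either concentration is a description. Krt1 with 10 µM had a log2 fold change of 1.29 (SE 0.668, adjusted p = 0.166). The controls had 3.92 in a separate fit of their 8 libraries, and a direct contrast of the 2 courses did not pass (adjusted p = 0.169). The rises of Krt10 and Krt77 with 10 µM leaned on replicate 3 at 24 h: without that library they were 1.41 (adjusted p = 0.132) and 2.94 (adjusted p = 0.496). With replicate 3 left out of all groups 4 of the 6 calls were made. Leaving out 1 library at 3 h also ended the call of Krt10 (replicates 1, 3 and 4, adjusted p up to 0.0801) and of Krt77 (each of the 4, up to 0.101).

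Whether the 10 µM difference itself changed between 3 and 24 h was tested by a contrast of the differences. Grhl3 passed (-1.28, SE 0.338, adjusted p = 0.0391), the only 1 of the 9 genes, where 2.59% of all genes tested were called. Krt1 had -2.62 (SE 0.935, adjusted p = 0.169), Krt15 -1.12 (adjusted p = 0.264), Krt5 -1.02 (adjusted p = 0.194) and Krt14 0.34 (adjusted p = 0.550). The Grhl3 call was near the threshold and was lost in 14 of 16 cases without 1 library (all but 24 h control replicates 2 and 4, adjusted p up to 0.0841), and with replicate 3 left out of all groups the adjusted p was 0.196. For 1 µM no gene of the set passed, and 0.0359% of all genes tested were called.

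Ratios within a library set the members against each other and against Epcam, on log2(CPM + 1) values, and were not tested. The difference of Krt10 minus Krt14 was -3.87 ± 0.83 (SD, n = 4) in the 3 h controls, -1.37 ± 1.07 in the 24 h controls, -1.98 ± 0.99 with 1 µM and -3.31 ± 0.81 with 10 µM at 24 h. The 10 µM libraries at 24 h ran from -4.16 to -2.22 and the controls from -2.62 to -0.29, so replicate 3 with 10 µM reached into the control range. Krt5 minus Epcam was 3.84 ± 0.24 in the 24 h controls and 2.67 ± 0.22 with 10 µM, and the highest treated library (2.98) lay below the lowest control (3.60). At 24 h Krt14 minus Epcam had the same mean in both groups, 3.31 ± 0.57 in controls and 3.31 ± 0.15 with 10 µM. Trp63 minus Epcam was then 0.03 ± 0.19 in controls and -0.17 ± 0.31 with 10 µM. At 3 h Krt14 minus Epcam was 2.90 ± 0.23 in controls and 2.32 ± 0.15 with 10 µM. The highest 10 µM library there (2.49) lay below the lowest control (2.57). Epcam itself averaged higher with 10 µM at 3 h, 45.3 ± 6.47 against 38.2 ± 6.29 CPM in controls, which lowers this ratio. Krt14 CPM alone overlapped between these groups, and no share over other gene pairs was computed. Krt5 minus Epcam at 3 h was 3.39 ± 0.23 and 2.98 ± 0.15, with overlapping libraries. Trp63 minus Epcam at 3 h was -0.40 ± 0.27 and -0.27 ± 0.12, also overlapping. Epcam itself was at 47.3 ± 11.0 CPM in the 24 h controls and 45.7 ± 8.47 CPM with 10 µM, Cdh1 at 77.8 ± 24.4 and 67.0 ± 10.7 CPM, and the desmosome protein gene Dsp at 277 ± 85.5 and 208 ± 43.3 CPM.

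**Figure D3:**
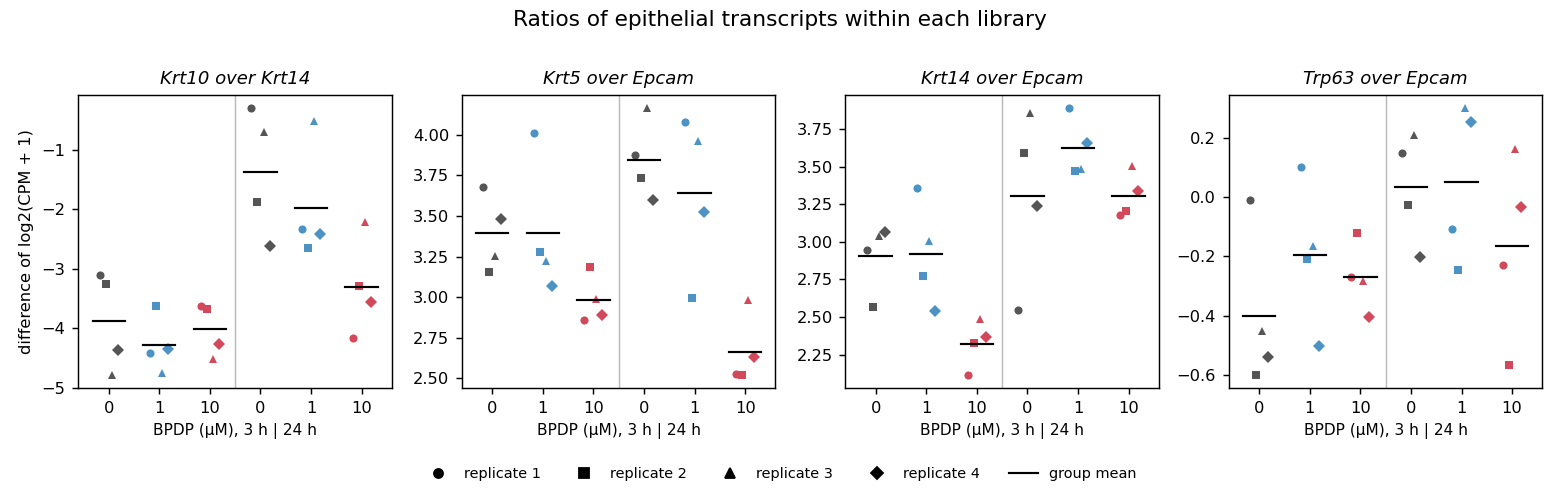
Difference of log2(CPM + 1) between 2 genes within each library (vertical axes, one scale per panel), by BPDP concentration at 3 h and 24 h. Marker shapes are replicate numbers and bars are group means. At 24 h with 10 µM, Krt5 over Epcam (2.67) is below every control, while the mean of Krt14 over Epcam is 3.31 in both groups. At 3 h every 10 µM library is below every control for Krt14 over Epcam, where mean Epcam was higher with 10 µM and Krt14 CPM alone overlapped.

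The RefSeq promoter table (GRCm38.p6) had an entry for 5 of the 9 genes, Krt5, Krt14, Krt10, Krt77 and Grhl3. The 250 bases before the annotated start are shown for the 2 genes that fell with 10 µM, Krt5 and Grhl3. They are also shown for Krt10 and Krt77, which were lower in each replicate number without passing. All lie on the minus strand and are printed 5′ to 3′, with capitals for the TATA box letters TATAAA. Krt14 is not shown because its RefSeq start lies 1518 bases inside the deposited gene. Its window, also inside that gene, is still counted among the 5 windows searched below. The bases before the deposited start of Krt14 were not searched. The windows are chr15:101712906-101713155 (Krt5), chr11:99389365-99389614 (Krt10), chr15:101869706-101869955 (Krt77) and chr4:135573633-135573882 (Grhl3).
Krt5: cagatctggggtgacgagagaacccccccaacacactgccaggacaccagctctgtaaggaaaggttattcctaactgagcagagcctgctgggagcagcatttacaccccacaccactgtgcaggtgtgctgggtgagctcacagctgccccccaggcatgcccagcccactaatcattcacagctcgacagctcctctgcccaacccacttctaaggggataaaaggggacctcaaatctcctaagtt
Krt10: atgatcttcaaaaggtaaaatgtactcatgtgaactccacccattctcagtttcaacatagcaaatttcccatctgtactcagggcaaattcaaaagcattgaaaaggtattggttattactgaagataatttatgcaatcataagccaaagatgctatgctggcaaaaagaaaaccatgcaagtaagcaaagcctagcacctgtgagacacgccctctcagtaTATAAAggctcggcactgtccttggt
Krt77: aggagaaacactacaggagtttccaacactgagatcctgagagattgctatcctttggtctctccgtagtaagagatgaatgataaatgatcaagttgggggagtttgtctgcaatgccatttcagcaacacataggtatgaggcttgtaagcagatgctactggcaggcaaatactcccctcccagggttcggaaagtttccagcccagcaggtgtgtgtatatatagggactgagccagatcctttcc
Grhl3: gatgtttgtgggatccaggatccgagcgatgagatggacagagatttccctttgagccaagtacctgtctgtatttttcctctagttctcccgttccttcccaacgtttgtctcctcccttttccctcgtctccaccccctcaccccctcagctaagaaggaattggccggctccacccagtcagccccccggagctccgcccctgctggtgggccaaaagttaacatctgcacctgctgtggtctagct
TATAAA was found, on either strand, in 1 of the 5 windows, Krt10, starting 26 bases before the start site, and in 12.3% of 32536 RefSeq windows of the same length. The grainyhead-like letters AACCGGTT (0.117% of all windows), the AP-2 letters GCCNNNGGC (13.8%) and the core of a p53-family half-site, ACATGT (4.49%), were in 0 of the 5. These matches describe the letters in 250 bases and no more.

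Other epidermal genes were read from lists of 7 kinds. Their counts of called genes stand against 3.44% lower and 2.77% higher among all genes tested with 10 µM at 24 h, and 5.45% higher and 4.1% lower in the controls over time. In lists of 5 to 19 genes those shares come to about 1 gene or fewer, so a single call says nothing of a list. At 24 h with 10 µM, 1 of 10 tested genes of late differentiation fell, Tgm1, the transglutaminase that cross-links the cornified envelope (log2 fold change -2.18, SE 0.454, adjusted p = 0.0267). The median over that list was -2.02, and 4 of its genes were lower with 10 µM in groups that did not overlap (7.87% of all genes tested). Of 19 other epidermal transcription factors and kinases, 2 fell: Ovol1 (-1.42, adjusted p = 0.0282), a repressor that lets epidermal progenitors leave the cycle, and Zfp750 (-1.14, adjusted p = 0.0101), a factor of terminal differentiation that acts downstream of p63. The median there was -0.58. Limb ectoderm and apical ridge signals had 2 of 11 lower, Bmp7 (-0.88, adjusted p = 0.000348) and Dlx5 (-0.55, adjusted p = 0.0412), which the mesenchyme also expresses. Of 15 junction genes 1 rose, Cdh3 (P-cadherin, 0.43, adjusted p = 0.0312), with a median of -0.41.

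Genes that anchor basal cells to the basement membrane had no call among 10 tested and a median of 0.20. The 5 tested simple-epithelial and periderm keratins had no call and a median of -1.25, and 7 placode genes had no call and a median of -0.57. A gene of these lists that passed the count filter only through its higher group had to differ. The medians and the count of late differentiation genes without overlap are therefore descriptions. In the controls over time, 2 of 9 late differentiation genes were called higher. Krtdap rose by 3.10 (SE 0.645). The desmocollin gene Dsc1 was at 0.0433 ± 0.0867 CPM (SD, n = 4) at 3 h and 4.34 ± 4.68 CPM at 24 h, so it passed the count filter only through the 24 h group and its call is a description. Also higher were 2 of 6 periderm and simple-epithelial keratins, Krt6a (2.82) and Krt7 (1.15). The junction list had 4 of 15 higher, among them Pkp1 (1.54), Dsg3 (1.30) and Dsp (1.26), and 2 lower. The basement membrane list had 2 of 10 higher, Lama3 (0.84) and Itgb4 (0.78). Of the other regulators 4 of 19 rose, among them Zfp750 (1.22) and Esrp2 (1.05).

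**Figure D4:**
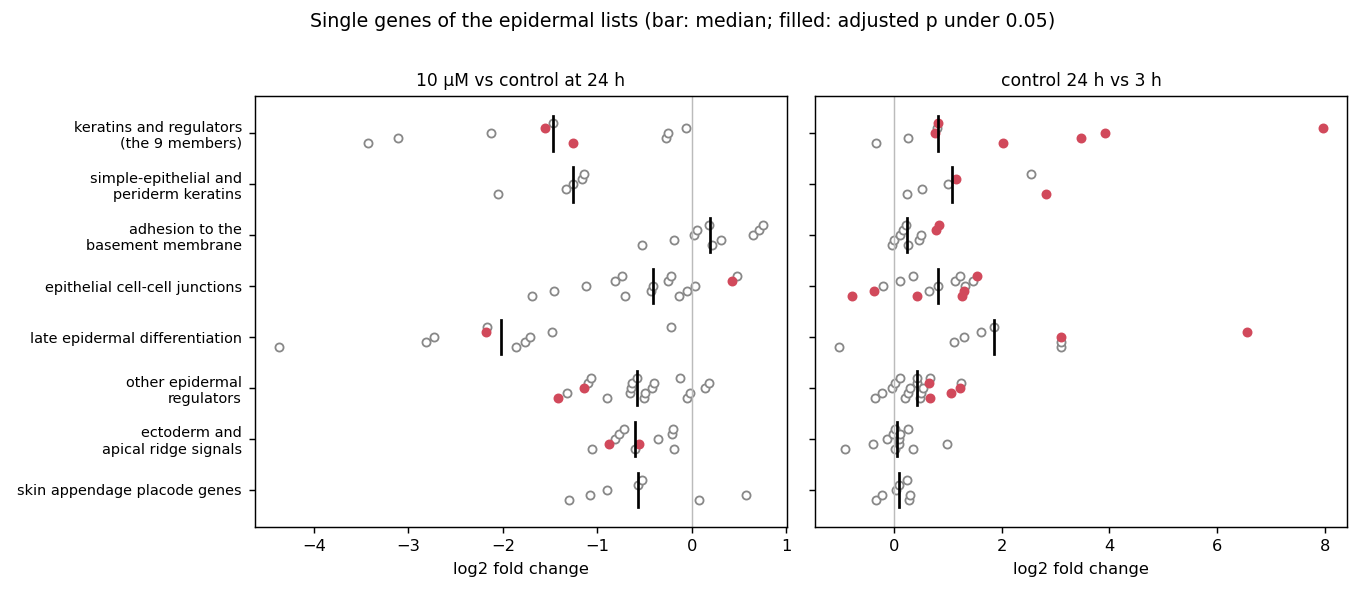
Log2 fold change of each tested gene of the epidermal lists with 10 µM against control at 24 h (left) and in controls from 3 to 24 h (right). Bars are list medians and filled points passed an adjusted p of 0.05. On the left the median is -2.02 for late differentiation and 0.20 for adhesion to the basement membrane, and on the right 1.85 and 0.25.

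Markers of other cell types also differed with 10 µM at 24 h. Of 8 macrophage markers 7 were lower, and their summed level was 167 to 226 CPM in controls and 54.8 to 84.5 CPM with 10 µM. Of 8 endothelial markers 5 were lower (298 to 352 against 197 to 227 CPM). Among all genes tested 3.44% were called lower in that comparison. Markers of Merkel cells, which also hold keratins, summed to at most 4.95 CPM in any of these libraries. Summed mesenchyme markers overlapped between the groups (5548 to 7496 against 6191 to 8102 CPM). The part of these cells in the results for the 9 genes was not tested.

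The genes most like a member were ranked by Pearson's r of log2(CPM + 1) over the 24 libraries, among 14465 genes with a mean of at least 1 CPM. The 24 libraries share their times and concentrations, so r is also given within the 12 libraries of each time, as a description. For Krt5 they were Tgm1 (r = 0.936, 0.734 at 3 h and 0.961 at 24 h), Lypd3, Endou, Trim29 (0.904, 0.882 and 0.973) and Ppl, a plakin of the cornified envelope. For Krt10 they were the desmoglein gene Dsg1a (0.964, 0.700 and 0.966), S100a14, Pkp1, Il17rc and Sytl1. For Trp63 they were the desmocollin gene Dsc3 (0.884, 0.876 and 0.822), Col4a6, Dsp (0.875, 0.938 and 0.785), Cdh1 and Map7. Spearman's rho was 0.921 for Krt5 with Tgm1, 0.928 for Krt10 with Dsg1a and 0.852 for Trp63 with Dsc3, and without the 2 libraries farthest from the median r was 0.909, 0.947 and 0.845.

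Among the members, the pairs differed in how closely they moved over the 12 libraries at 24 h. Krt5 with Krt15 had r = 0.981, Krt10 with Krt77 0.970, Krt1 with Krt10 0.953 and Krt5 with Grhl3 0.949. Krt5 with its own filament partner Krt14 had 0.464, and Krt17 with Trp63 0.0439. At 3 h Krt5 with Krt15 had 0.955 and Krt5 with Krt14 0.660, while Krt5 with Grhl3 had -0.314.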

How the data were processed

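Poly-A RNA libraries of 24 limb bud cultures were analysed, 4 for each of 6 groups taken from the sample labels. Per the submitters' processing notes, reads were handled with DESeq2 (version 2 in the notes), HTSeq 0.6.1, STAR 2.5 and CASAVA 1.8 on mm10, with roles and settings not given in the sources used here. The authors deposited 5 pairwise tables of raw read counts per gene and library, without normalization. The same deposited tables hold the authors' log2 fold changes and the authors' p-values and adjusted p-values. A further 50 columns (FPKM and group means) were not used. Libraries present in several tables had 0 differing counts, so the tables were joined into 25844 genes. No library was a near copy of another in its group (lowest chi-square per degree of freedom 4.70).

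Counts were tested with edgeR 4.0.16 (R 4.3.3), quasi-likelihood with robust fitting, a filterByExpr filter (count 10, total 15) and TMM scaling, on the whole table, with Benjamini-Hochberg adjustment over all genes tested and a threshold of 0.05. Treated groups and the 24 h controls were compared in fits of 8 libraries. Contrasts between concentrations, within a concentration over time and between effects came from 1 fit of all 24 libraries. The script was tested on simulated data. Alternatives were RLE scaling, no count filter, replicate number as a block, a split between replicates 1 and 2 and replicates 3 and 4 (seen in earlier results, not named in the labels), DESeq2 1.42.0, each library left out in turn and, chosen after seeing the data, replicate 3 left out of every group.

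Deviations from group means of libraries with the same number correlated at over 0.1 in all 4 pairs of each comparison of 2 groups (0.106 to 0.361) except that of the controls over time. A library's closest match in the other group bore the same number for 1 to 4 of the 4 libraries in those comparisons. The main tests used group only and ignored the numbers. Replicate number as a block was an alternative, and the blocked value stands beside a result whose call it changes. For the controls over time it stands only in the closing section. The 9 genes and all gene lists were chosen with earlier results of these data known. Genes outside the 9 were named by a rule: up to 3 called genes of a list with the largest change, and the 5 genes most like Krt5, Krt10 and Trp63. RefSeq promoter windows and GENCODE vM21 transcripts were searched for exact letters. Protein sequences were not analysed here.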

Additional observations from a re-analysis of the deposited data

Results flagged for a closer look

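Each of the 54 groups of 4 libraries (9 genes in 6 groups) was checked for a highest or lowest library whose gap to the next was a large share of the group's range (Dixon's 95% bound). Chance passes that bound in about 1 of 20 groups, and 6 groups passed it. Krt77 passed in all 3 groups at 24 h, each time through replicate 3 as the highest: 226 CPM in controls, where the others were at 11.3 to 46.5 CPM, 152 CPM with 1 µM (others 6.31 to 26.8) and 26.3 CPM with 10 µM (others 0.382 to 1.12). Krt17 was at 513 CPM in replicate 1 with 1 µM at 24 h, above the others at 214 to 262 CPM. Grhl3 was at 5.79 CPM in replicate 4 with 10 µM at 24 h, below the others at 8.77 to 9.29 CPM. Trp63 was at 28.9 CPM in replicate 3 with 1 µM at 3 h, below the others at 34.8 to 35.9 CPM.

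The difference of Grhl3 between 10 µM and control was larger at 24 h than at 3 h by a contrast of the 2 differences (-1.28 on the log2 scale), with log2 fold changes of -0.27 at 3 h and -1.55 at 24 h. That call was near the threshold: it was lost in 14 of 16 cases without 1 library, and with replicate 3 left out of all groups.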

How the results depend on the processing

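RLE scaling changed no count of called genes among the 9. With 10 µM at 3 h the count was 1 (Krt14) against 0 without the count filter, with the replicate block, with the term for replicates 1 and 2 against 3 and 4, and with DESeq2. With 10 µM at 24 h it was 2, and 1 without the count filter, 0 within replicates 1 and 2, 0 within replicates 3 and 4, 0 with replicate 3 left out, and 5 with DESeq2 and in the fit of all 24 libraries. Over time in controls it was 6, and 1 within replicates 1 and 2, 2 within replicates 3 and 4, 3 with replicate 3 left out, 4 without the count filter and with the term for replicates 1 and 2 against 3 and 4 (Krt5 and Krt10 lost in both), and 7 with DESeq2 and in the fit of all 24 libraries (Trp63 added). Krt10 passed in 5 of the 18 fits of that comparison. Between 10 and 1 µM at 24 h it was 2, with 4 under the replicate block (Krt5 and Krt77 added) and 1 with replicate 3 left out. For the difference of the 10 µM effect it was 1, and 0 without the count filter and with replicate 3 left out. Without 1 library the counts ran from 1 to 3 (10 µM at 24 h), 2 to 7 (controls over time), 1 to 3 (10 against 1 µM at 24 h), 5 to 6 and 4 to 6 (over time with 1 and 10 µM) and 0 to 1 (difference of the 10 µM effect).

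The controls over time had same-number correlations of 0.0854 to 0.345, the lowest of them under the bound of 0.1. The labels do not say what a number marks. The block there gave 5 calls, with Krt1 (adjusted p = 0.0545) and Krt10 (0.110) not called and Trp63 called (0.00163). Over time with 1 µM the block gave 6 calls, Krt15 added. It changed no other call among the 9 genes beyond those given with the results.

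Signs turned only in uncalled values. Krt17 with 10 µM at 3 h was 0.033 within replicates 3 and 4, 0.15 with replicate 3 left out and -0.21 to 0.15 without 1 library. At 24 h, Krt14 was 0.25 within replicates 1 and 2, 0.13 with replicate 3 left out and -0.15 to 0.18 without 1 library, and Krt17 was 0.061 within replicates 1 and 2. Without 1 library, Grhl3 over time with 1 µM ran from -0.24 to 0.17 and Krt17 in the difference of the 10 µM effect from -0.39 to 0.0023. In the 4 comparisons with no call, 49 of 577 values turned sign and 0 were called. Depth limits Krt77 at 3 h, where counts were 0 to 14.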
